A study of Rattus norvegicus with 6 samples.

Results

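The tetraspanins described here are 7 genes, Tspan7, Tspan8, Cd9, Cd63, Cd81, Cd82 and Cd151, chosen by gene symbol from 10412 genes named singly by probe sets of the array. Each was named by 1 probe set of the 15923 on the array, so 7 probe sets hold all their values. The 7 were chosen with blood and marrow differences of these same arrays already known, so those differences are given as a description, without a test. The arrays measured RNA of cultured mesenchymal stromal cells, plastic-adherent cells of fibroblast shape. PB_MSC cultures, grown from peripheral blood, were compared with BM_MSC cultures, grown from bone marrow. Both groups came from the same 3 GFP transgenic rats, S4, S5 and S6, with 1 blood and 1 marrow culture per rat, and every culture was taken at passage 2 after growth in 15% serum without further treatment. All 6 cultures therefore carried the GFP transgene, while the sources used here do not give its promoter or the strain, sex and age of the rats.

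Tetraspanins are small membrane proteins that cross the membrane several times and carry a large extracellular loop with conserved cysteines. They seldom act as receptors for soluble ligands. They bind integrins, immunoglobulin-family proteins, proteases and each other, and so gather these partners into patches of the plasma membrane and of endosomes. Cd9, Cd63 and Cd81 are the usual marker proteins of extracellular vesicles, including those collected from stromal cell cultures. Cd151 is the classic partner of laminin-binding integrins.

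Signals are on a log2 scale, whose base was read from the range of the values (largest 13.31). Array medians ran from 8.12 to 8.22. Of 8135 probe sets that passed a filter on signal (above the table's median of 8.18 on at least 3 of 6 arrays), 175 passed an adjusted p of 0.05 in limma with the rat as a term, 80 higher and 95 lower in blood cultures. Stromal genes such as Col1a1, Col1a2, Fn1 and Vim were bright on all arrays, and all 13 stromal markers passed the filter, of which 1, Eng, was called (1.62 ± 0.23, limma adjusted p = 0.038). That call was lost under trimmed-mean scaling, quantile normalization and, at an adjusted p of 0.116, without a filter. It was also lost without the rat term and without rat S4 or rat S6. Under a stricter filter (above the median on all 6 arrays) Eng was called, and so were Nt5e and Pdgfra. Without rat S5 Eng was called, and so were Pdgfra, Lum, Dcn and Thy1. Of the 13, 6 had an unadjusted p under 0.05, 3 higher and 3 lower in blood. The higher ones were Eng, Nt5e at 0.77 ± 0.15 and Col1a1 at 0.47 ± 0.13. The lower ones were Pdgfra at -1.93 ± 0.35, Lum at -1.93 ± 0.72 and Dcn at -1.38 ± 0.45. Lum and Dcn were lower in rats S4 and S6 only, with differences of 0.20 and 0.06 in rat S5. Thy1 read 7.02, 9.42 and 7.41 in the blood cultures of rats S4, S5 and S6, against 9.38, 7.68 and 9.84 in their marrow cultures, so rat S5 ran against the other rats. Their summed linear signal was 45971 to 56001 in blood and 49600 to 56875 in marrow cultures. Of 15 macrophage and leukocyte markers 9 also passed the filter. Without rat S4 no probe set passed, with 770 at an unadjusted p under 0.05, while leaving out rat S5 gave 406 calls and leaving out rat S6 gave 44. The small number of arrays sets the precision of each value. The p-values for blood against marrow rest on how the blood minus marrow differences vary over 3 rats. limma draws each variance towards a value shared by all tested probe sets.

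Blood cultures held far more Tspan7 signal than marrow cultures and somewhat more Tspan8 signal at a very dim level, while the other 5 genes had smaller mean differences. Tspan7 stood 10.1-fold higher. By mean difference, Cd9, Cd63, Cd81, Cd82 and Cd151 all lay within 0.5 log2 units of equality, with blood over marrow ratios of 0.772 to 1.39. The median absolute difference over all tested probe sets was 0.13, against -0.37 for Cd82 and 0.48 for Cd151. Of the 6 genes that passed the filter, 1, Tspan7, was among the 175 calls, where 2.15% of all tested probe sets were called, 0.983% higher and 1.17% lower in blood, and 14.1% had an unadjusted p under 0.05. Nothing is read from that share, because the choice of genes used the same difference.

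The bases before the annotated starts of Tspan7, Tspan8 and Cd63 are shown, because these are the gene with the widest difference, the dim gene whose groups were also apart, and the gene with the smallest difference. Each line gives the 250 bases before the start in RefSeq's GRCr8 build, 5′ to 3′ on the gene's strand, with GGGCGG on either strand (read as CCGCCC on the other) in capitals.
Tspan7, chrX:14978628-14978877, minus strand: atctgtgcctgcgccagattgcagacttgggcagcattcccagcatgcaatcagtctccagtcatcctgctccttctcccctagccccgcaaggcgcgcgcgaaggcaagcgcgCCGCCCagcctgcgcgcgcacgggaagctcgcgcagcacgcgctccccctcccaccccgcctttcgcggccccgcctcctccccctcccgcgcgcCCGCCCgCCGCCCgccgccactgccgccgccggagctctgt
Tspan8, chr7:53330937-53331186, plus strand: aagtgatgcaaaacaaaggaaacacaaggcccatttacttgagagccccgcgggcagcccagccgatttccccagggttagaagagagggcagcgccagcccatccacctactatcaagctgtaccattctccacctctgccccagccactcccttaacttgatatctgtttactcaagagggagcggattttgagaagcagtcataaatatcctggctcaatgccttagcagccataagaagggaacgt
Cd63, chr7:1921894-1922143, plus strand: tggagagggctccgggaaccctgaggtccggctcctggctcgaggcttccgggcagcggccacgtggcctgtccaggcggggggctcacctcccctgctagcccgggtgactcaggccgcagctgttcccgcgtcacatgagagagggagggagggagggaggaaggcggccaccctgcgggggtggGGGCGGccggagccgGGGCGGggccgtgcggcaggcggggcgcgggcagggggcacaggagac

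The Tspan7 window held 32 CpG dinucleotides and 73.6% G and C, and 95.9% of 33469 rat promoters had fewer CpGs. The Tspan8 window held 6 CpGs, near the median of 5 over all promoters, and the Cd63 window 22. GGGCGG was found 3 times before Tspan7, 2 times before Cd63 and 0 times before Tspan8, and 30.5% of all promoters of this length hold it. The letters TATAAA and CCAAT, searched on both strands and found in 12.9% and 34.0% of promoters, were in none of the 6 windows of Tspan7, Tspan8, Cd9, Cd63, Cd81 and Cd151. Cd9 held 16 CpGs, Cd81 13 and Cd151 17, with 2 or 3 GGGCGG matches each. A CpG-rich window was thus found both before the gene that differed most and before Cd63, which differed least. These matches are letters in a window and do not show that a factor binds there.

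Tspan7 is a tetraspanin best known from neurons, where it acts at synapses and where human mutations cause X-linked intellectual disability. Its probe set (Entrez gene 363447) read 10.20, 9.08 and 10.52 in the blood cultures of rats S4, S5 and S6. The marrow cultures of the same rats read 6.32, 6.41 and 7.08. The groups did not overlap, and the lowest blood value, of rat S5, lay 2.00 log2 units above the highest marrow value, of rat S6. Group means were 9.93 ± 0.76 in blood and 6.60 ± 0.42 in marrow cultures (SD, n = 3 each). The difference was 3.88 in rat S4, 2.67 in rat S5 and 3.44 in rat S6, and the fitted difference was 3.33 ± 0.24 (SE). It ranked 13 among all tested probe sets by its size towards blood. The probe set passed the filter through the 3 blood arrays alone. The marrow arrays lay below the table's median, where no background level is known, so the fold is approximate. In bulk RNA, fewer cells of a type and less RNA per cell cannot be told apart.

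Tspan8 is a tetraspanin of digestive epithelia that was first described as an antigen of carcinoma cells. Its probe set (Entrez gene 171048) read 4.86, 4.41 and 4.25 in blood cultures and 2.69, 3.54 and 3.50 in marrow cultures of rats S4, S5 and S6. The groups did not overlap, but all 6 values lay far below the table's median, so the gene did not pass the filter and was not tested. The means were 4.51 ± 0.32 in blood and 3.24 ± 0.48 in marrow cultures (SD, n = 3 each), a difference of 1.26 ± 0.31 (SE). The difference was 2.17 in rat S4, against 0.87 and 0.75 in rats S5 and S6. Without rat S4 it was 0.81, smaller by more than 1.5 times. No background level is known for signals this dim, so no ratio is given.

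**Figure D1:**
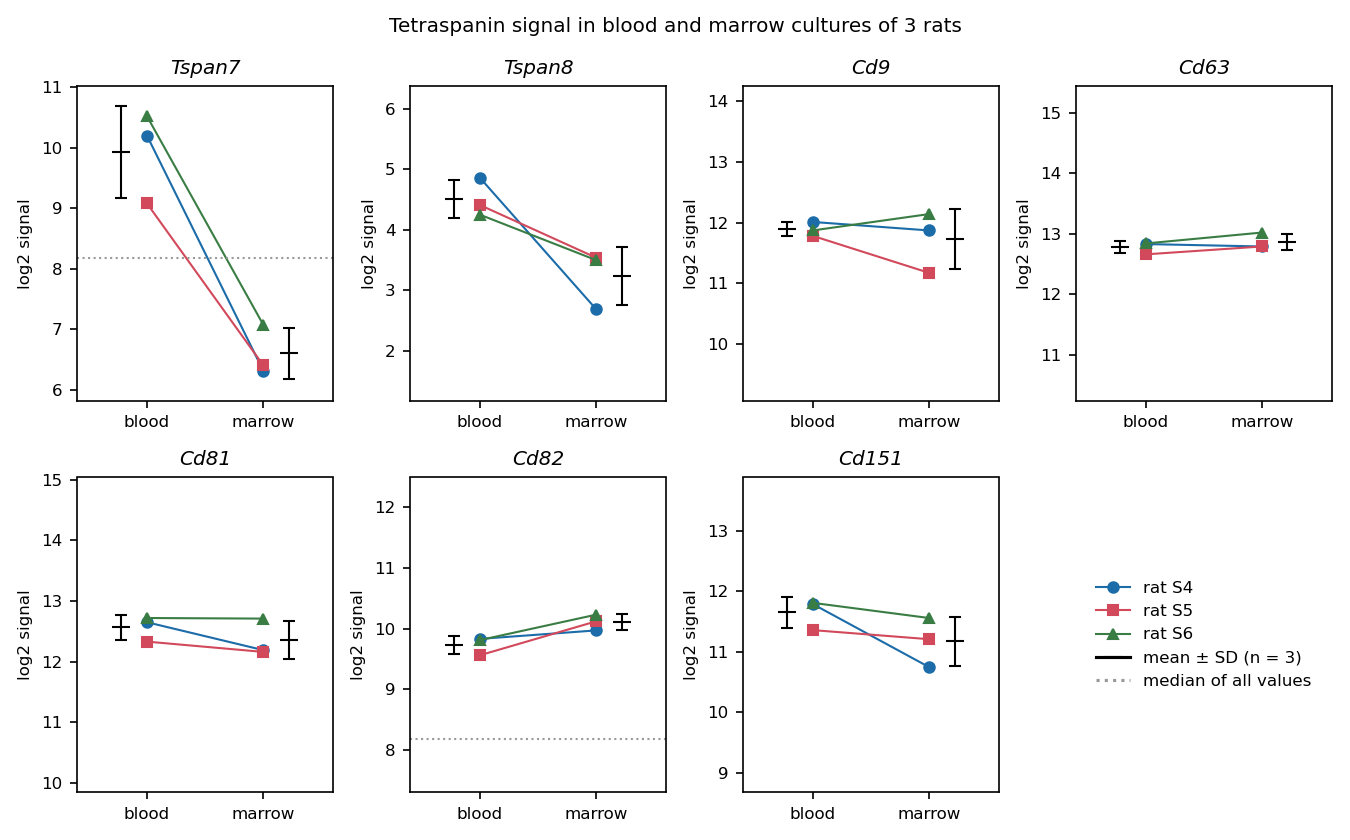
Log2 signal (y axis, the same height of 5.2 log2 units in each panel) of each tetraspanin in blood and marrow cultures, with 1 line per rat and black bars for the mean ± SD of 3 cultures. Tspan7 is higher on the blood side in all 3 rats, with the groups on either side of the median of all values (dotted), while mean differences of Cd9, Cd63, Cd81, Cd82 and Cd151 lie within 0.5 log2 units, with single rats further apart (Cd151 by 1.04 in rat S4).

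Cd9, Cd63 and Cd81, the vesicle markers, were bright in both kinds of culture and their groups overlapped. Cd9 also serves in sperm and egg fusion and on platelets. It read 12.01, 11.78 and 11.87 in blood cultures and 11.87, 11.17 and 12.14 in marrow cultures of rats S4, S5 and S6, a difference of 0.16 ± 0.19 (SE). Blood was higher in rats S4 and S5, by 0.14 and 0.61, and lower in rat S6, at -0.27. The sign of the mean rested on rat S5, and without it the difference was -0.07.

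Cd63 resides mainly in late endosomes and lysosomes and moves to the surface when granules fuse with the membrane. It read 12.83, 12.66 and 12.84 in blood cultures and 12.79, 12.79 and 13.02 in marrow cultures. The difference was -0.09 ± 0.12 (SE), with 1 of 3 rats higher in blood. The largest value in the table was 13.31, and whether the Cd63 probe set was near saturation was not tested. The 6 Cd63 values spanned 0.36 log2 units, against 4.20 for Tspan7.

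Cd81, part of the B cell co-receptor and an entry factor of hepatitis C virus in human liver, read 12.65, 12.33 and 12.72 in blood cultures and 12.19, 12.16 and 12.71 in marrow cultures. Blood was higher in 3 of 3 rats, by 0.46, 0.17 and 0.01, and the fitted difference was 0.21 ± 0.14 (SE). Rat S6 was the highest of its group on both sides, and its blood and marrow cultures were almost equal. Without rat S4 the difference was 0.09.

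Cd151, which binds the laminin receptors α3β1 and α6β1 integrin, read 11.79, 11.36 and 11.81 in blood cultures and 10.75, 11.21 and 11.56 in marrow cultures of rats S4, S5 and S6. The groups overlapped, since the blood culture of rat S5 was below the marrow culture of rat S6. Means were 11.65 ± 0.25 in blood and 11.17 ± 0.41 in marrow cultures (SD, n = 3 each), a difference of 0.48 ± 0.20 (SE). The difference was 1.04 in rat S4, against 0.15 and 0.25 in rats S5 and S6, and without rat S4 the difference was 0.20.

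Cd82, known as KAI1 and as a suppressor of metastasis in human tumours, was the only one of the 7 that was lower in blood cultures in every rat. It read 9.83, 9.56 and 9.81 in blood cultures and 9.97, 10.12 and 10.23 in marrow cultures. The groups did not overlap, with 0.14 log2 units between the highest blood and the lowest marrow value, both of rat S4. The difference was -0.37 ± 0.14 (SE), or 1.30-fold lower in blood. Among the 7 genes, 3 had groups that did not overlap, Tspan7, Tspan8 and Cd82. Of all tested probe sets 18.4% had such groups, and 16.3% of all probe sets without the filter, and nothing is read from the count because the genes were chosen on this contrast. The sign was the same in every rat for 5 of the 7 genes, and for 34.3% of tested probe sets.

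Differences between rats are estimated apart from the blood and marrow contrast. They were tested in the same limma fit, by an F test of the rat term. Both tests share the residual variance of each probe set, so rat p-values are not independent of the choice of the 7 genes. Of 8135 probe sets 0 passed after Benjamini-Hochberg adjustment (0.0%), with 533 (6.55%) at an unadjusted p under 0.05. Of the 6 tetraspanins that were tested, 0 passed after adjustment, and Tspan7 alone had an unadjusted p under 0.05, at 0.0356 (adjusted p = 0.71). Tspan7 had entered this test through its 3 blood arrays alone. Cd81 followed at 0.0861 and Cd9 at 0.125 (adjusted p = 0.835 and 0.849). In level, rat S5 had the lowest blood culture for 6 of the 7 genes, all but Tspan8, and rat S6 the highest marrow culture for 6, also all but Tspan8. Of all tested probe sets, 57.2% were lowest in that blood array and 49.6% highest in that marrow array. After quantile normalization those shares were 40.4% and 36.5%, and the counts for the 7 genes were 6 and 5.

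The arrays name 17 more tetraspanin genes in the annotation used here, of which 10 passed the filter, and none was called in limma over all probe sets. They were Tspan2, Tspan3, Tspan4, Tspan5, Tspan6, Tspan9, Tspan12, Tspan17, Tspan31 and Cd53. Their median difference was 0.11, against -0.01 over all tested probe sets. Of the 10, 8 were above 0 and 2 below, beside 47.9% of all tested probe sets above 0. An unadjusted p under 0.05 was found for 1 of the 10, beside 14.1% of all tested probe sets. Differences ran from -0.16 (Tspan4) to 0.61 (Tspan2), and no 95% interval of the 10 reached 1.30 log2 units or fell below -0.49. The share called over all probe sets was 2.15%.

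Tspan2, a tetraspanin of oligodendrocytes and of smooth muscle, had the smallest adjusted p of the 10. It read 8.50, 8.22 and 8.32 in blood cultures and 7.58, 7.98 and 7.66 in marrow cultures of rats S4, S5 and S6. The groups did not overlap, and the difference was 0.61 ± 0.16 (SE, limma adjusted p = 0.178). It passed the filter through its 3 blood arrays alone. Its dimmer probe set, below the filter, differed by 0.72 ± 0.24 in the same direction. Tspan31, which lies near the cell cycle kinase gene Cdk4, differed by 0.20 ± 0.12 and was higher in blood in 3 of 3 rats (limma adjusted p = 0.593). Tspan3 differed by -0.15 ± 0.12 and was lower in blood in 3 of 3 rats (limma adjusted p = 0.709). Tspan4, a marker of migrasomes that form on the retraction fibres of moving cells, differed by -0.16 ± 0.13 (limma adjusted p = 0.704).

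Tspan5 and Tspan17 belong to the tetraspanins that escort the protease ADAM10 to the cell surface. They differed by 0.09 ± 0.20 and 0.02 ± 0.13, with 2 of 3 rats and 1 of 3 rats higher in blood. Tspan12, a co-receptor in Norrin and frizzled signalling in the retina, differed by -0.45 in rat S4, 0.63 in rat S5 and 0.13 in rat S6. Tspan6 and Tspan9 differed by 0.12 ± 0.14 and 0.11 ± 0.16. Except for Tspan2, Tspan31, Tspan3, Tspan4 and Cd53, these 10 genes changed sign between rats.

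**Figure D2:**
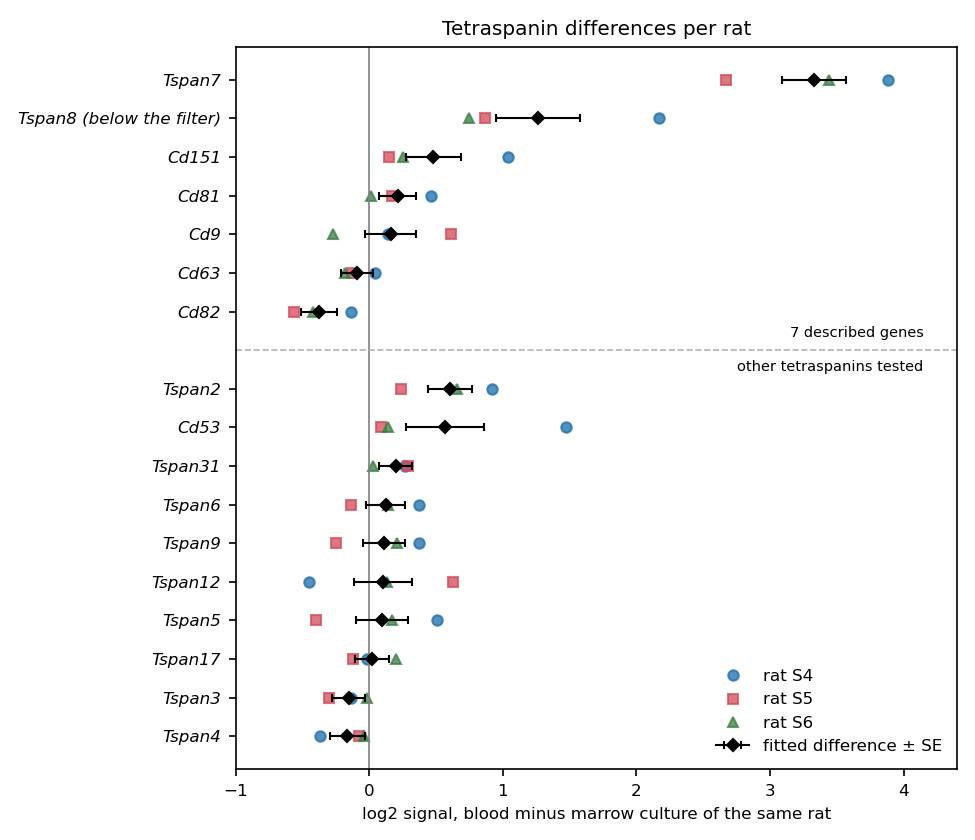
Blood minus marrow difference in log2 signal (x axis) of the 7 described tetraspanins (above the dashed line) and the 10 other tetraspanins that passed the filter (below it). Coloured points are rats and black diamonds the fitted difference ± SE; Tspan7 lies between 2.67 and 3.88, and all 10 of the lower genes lie within 1.47 of zero in every rat.

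Cd53, a tetraspanin of leukocytes, read 10.25, 9.99 and 10.02 in blood cultures and 8.78, 9.90 and 9.88 in marrow cultures. The difference was 1.47 in rat S4, against 0.09 and 0.14 in the others, and the fit gave 0.57 ± 0.29 (SE, limma adjusted p = 0.489). Cd37, the other leukocyte tetraspanin named by the array, lay below the filter at 7.28 ± 0.14 in blood and 7.38 ± 0.20 in marrow cultures (SD, n = 3 each). The list of 15 macrophage and leukocyte markers holds Cd53 and Cd37 too, and of the 9 that passed the filter the brightest in mean log2 signal were Lyz2, Cd68, Fcer1g and Tyrobp. None of the 9 was called in limma, 1 had an unadjusted p under 0.05, and 8 were above 0, with a median difference of 0.40. Over all tested probe sets, 14.1% had an unadjusted p under 0.05 and 47.9% were above 0. The summed linear signal of the 15 markers was 16812, 11877 and 16538 in blood cultures and 7855, 11898 and 17388 in marrow cultures of rats S4, S5 and S6. Rat S4 thus had the widest gap in this sum, as in Cd53, Tspan7, Tspan8, Cd81 and Cd151. The widest gap was in rat S5 for Cd9 (0.61) and Cd82 (-0.56), and in rat S6 for Cd63 (-0.18). How many of all probe sets had their widest gap in rat S4 was not counted, so nothing is read from this likeness. None of the 15 was listed at 0, and Ptprc, Cd37, Itgam, Coro1a and Cd74 stayed under the median of the table throughout. Macrophages are also known to make Cd9, Cd63, Cd81 and Cd82, and their part in these values was not tested.

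Of the lists of other cell types that make Tspan7 or Tspan8, the mesothelial and epithelial list and the endothelial list were mostly dim. Of 8 neural and glial genes 5 passed the filter and 0 were called in limma. Of the 5, 2 were above 0 and 3 below, with a median difference of -0.02. Ncam1 read 11.06, 10.16 and 10.80 in blood cultures and 8.94, 8.39 and 10.66 in marrow cultures of rats S4, S5 and S6. Ncam1 alone had an unadjusted p under 0.05, with a difference of 1.34 ± 0.38, while its dimmer probe set, below the filter, gave 0.27 ± 0.14. S100b went the other way, at -0.50 ± 0.41, with its highest value, 10.93, in the marrow culture of rat S6. The summed linear signal of the 8 genes ran from 3261 to 4171 in blood cultures and from 2452 to 5047 in marrow cultures. Snap25, Mbp and Nefl were under the median on each array. Of 9 mesothelial and epithelial genes 2 passed, and both were called in opposite directions. These were Wt1, a mesothelial transcription factor, at 3.83 ± 0.19, and Msln, mesothelin, at -1.24 ± 0.11 (limma adjusted p = 0.0026 and 0.00911). The Wt1 probe set passed the filter through its 3 blood arrays alone, and a second one, under the median on each array, differed by 0.45 ± 0.13. With the brightest probe set chosen before the filter, that second one stood for Wt1, which was then not tested. Without rat S4 neither gene was called, but no probe set of the array passed in that fit. Msln was also not called without the rat term or without rat S6 (limma adjusted p = 0.114 and 0.100), fits in which Wt1 was called. The sum of the 9 genes was 1212 to 1354 in blood and 1547 to 1958 in marrow cultures, and 7 markers, the 4 keratins and Epcam, Cdh1 and Cldn1, were below the median on all 6 arrays. Of 7 endothelial genes 1 passed and was not called, at sums of 1111 to 1220 in blood and 970 to 1240 in marrow cultures. Of 5 platelet and erythroid genes 2 passed and 0 were called, with Pf4 at 0.49 ± 0.18 (0.26 without rat S4) and an unadjusted p under 0.05, and sums of 3933 to 4709 in blood and 2555 to 4355 in marrow cultures. Pf4 was bright, at 11.75, 11.90 and 11.57 in blood cultures and 10.79, 11.75 and 11.20 in marrow cultures of rats S4, S5 and S6. None of these markers was listed at 0, and their part in the Tspan7 difference was not tested.

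Tetraspanins work through their partners, and 19 of 31 partner genes named on the array passed the filter. None was called in limma, while 7 had an unadjusted p under 0.05, 2 of them higher and 5 lower in blood cultures, beside 14.1% of all tested probe sets. Their median difference was 0.01, against -0.01 over all tested probe sets. The integrin β1 chain gene Itgb1, the common subunit of the tetraspanin-bound integrins, differed by 0.07 ± 0.14. Itga3, the α3 chain that binds Cd151 directly, read 9.72, 8.09 and 9.29 in blood cultures and 7.81, 8.09 and 8.48 in marrow cultures. Its difference of 0.91 ± 0.35 did not pass (limma adjusted p = 0.333), and per rat it was 1.91, 0.00 and 0.81, where Cd151 gave 1.04, 0.15 and 0.25. Itga3 differed by 0.41 without rat S4, 1.36 without rat S5 and 0.96 without rat S6, with limma adjusted p of 0.61, 0.0423 and 0.721, so it passed in 1 of these fits. Itga6, the α6 chain, lay below the filter on both probe sets.

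The immunoglobulin-family partners of Cd9 and Cd81 are Igsf8, also called EWI-2, and Ptgfrn, also called EWI-F. Igsf8 read 8.91, 8.87 and 8.79 in blood cultures and 9.30, 9.43 and 9.11 in marrow cultures, groups that did not overlap, with a difference of -0.42 ± 0.12 (limma adjusted p = 0.202). Ptgfrn differed by 0.09 ± 0.15. Of the interferon-induced membrane proteins that bind Cd81, Ifitm2 and Ifitm3 were at -0.48 ± 0.12 and -0.53 ± 0.13 (limma adjusted p = 0.139 for both), lower in blood in 3 of 3 rats. Ifitm1 went the other way, at 0.32 ± 0.26 (limma adjusted p = 0.715), with 2 of 3 rats higher in blood. Cd36, a scavenger receptor found with Cd9 in macrophages and platelets, differed by 0.54 ± 0.15 (limma adjusted p = 0.185).

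Among the proteases that tetraspanins hold at the surface, Adam17 and Mmp14 were lower in blood in every rat without passing. Adam17, which sheds TNF and growth factor precursors, read 9.99, 9.82 and 10.05 in blood cultures and 10.52, 10.51 and 10.34 in marrow cultures. Its difference was -0.50 ± 0.13 (limma adjusted p = 0.169). Mmp14, a membrane-bound collagenase, differed by -0.38 ± 0.12 (limma adjusted p = 0.238). Adam10, the partner of Tspan5 and Tspan17, differed by 1.39 in rat S4, -0.16 in rat S5 and 0.45 in rat S6, and its fitted difference was 0.56 ± 0.29 (limma adjusted p = 0.496). Timp1, a protease inhibitor that binds Cd63, differed by 0.01 ± 0.17.

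The vesicle and lysosome genes that work with Cd63 had small mean differences. Of 33 named on the array 30 passed the filter and none was called in limma. Chmp3 and Flot1, 2 of the 30, had an unadjusted p under 0.05, beside 14.1% of all tested probe sets. The median difference was 0.06, 17 were above 0 and 13 below, and all 30 differences lay within 0.5 log2 units. Over all tested probe sets the median absolute difference was 0.13, so differences of that size were common on the array. The 95% intervals of the 30 ran from -0.73 to 1.03 log2 units. Groups did not overlap for 5 of the 30, beside 18.4% of all tested probe sets. Sdcbp, or syntenin, which links Cd63 and syndecans to vesicle formation, differed by -0.12 ± 0.12, and Pdcd6ip, or ALIX, by 0.20 ± 0.13. The lysosomal membrane genes Lamp1 and Lamp2 differed by -0.05 ± 0.12 and 0.15 ± 0.12. Chmp3, a subunit of the ESCRT-III complex that buds vesicles into endosomes, read 9.80, 9.54 and 9.73 in blood cultures and 10.05, 9.88 and 10.35 in marrow cultures. It differed by -0.40 ± 0.13 (limma adjusted p = 0.255), and Flot1, a lipid raft protein found in vesicles, by -0.36 ± 0.13 (limma adjusted p = 0.318). The syndecans Sdc1 and Sdc4 differed by 0.50 ± 0.22 and -0.33 ± 0.15, the lysosomal receptor gene Scarb2 by 0.34 ± 0.17, and Vps28, an ESCRT-I subunit, by -0.23 ± 0.14, none past the threshold.

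**Figure D3:**
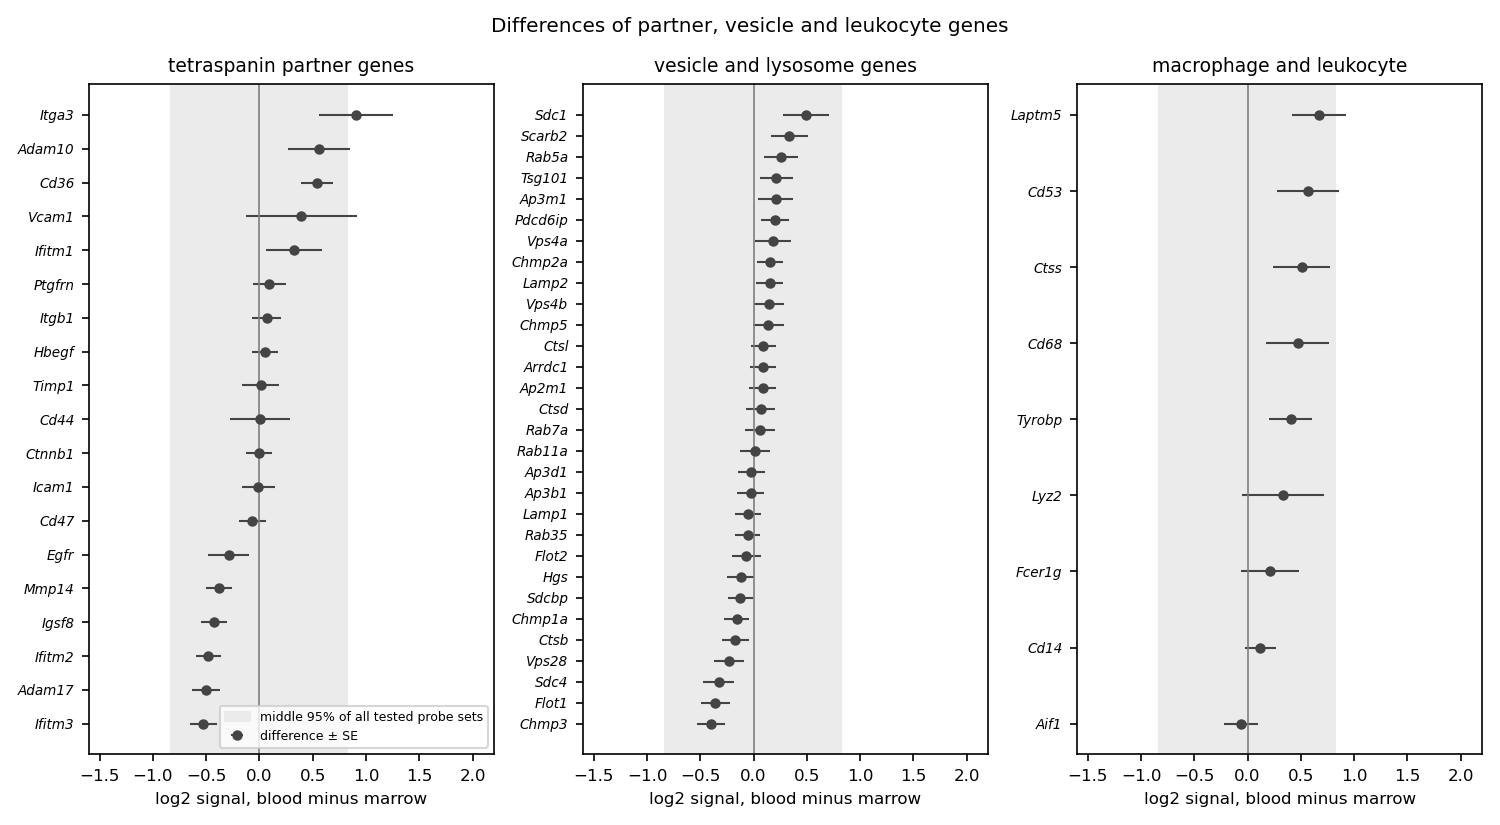
Blood minus marrow difference in log2 signal (x axis, ± SE) of partner genes, vesicle and lysosome genes, and macrophage and leukocyte genes that passed the filter. The grey band holds the middle 95% of all tested probe sets, and every gene but Itga3, at 0.91, lies inside it.

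Among 6096 other genes, each by its brightest tested probe set, the profile over the 6 arrays nearest to Tspan7 was that of Nrep. Likeness was the root mean square difference of log2 profiles centred on their own means, at 0.33 for Nrep, 0.37 for Cadm1, 0.40 for Bmp6 and 0.41 for PCOLCE2, spelled as in the annotation. Nrep, a small protein of regenerating neurons and of wound cells, read 10.24, 9.49 and 10.79 in blood cultures and 7.35, 7.17 and 7.77 in marrow cultures of rats S4, S5 and S6. Its blood cultures were lowest in rat S5 and its marrow cultures highest in rat S6, as those of Tspan7. The search favours a shared order of arrays, so nothing is read from this. Of all tested probe sets, 57.2% were lowest in that blood array and 49.6% highest in that marrow array. Cadm1, an immunoglobulin-family cell adhesion molecule also found at synapses, read 10.85, 9.43 and 10.96 in blood cultures and 6.04, 6.33 and 6.77 in marrow cultures. Bmp6, a bone morphogenetic protein, read 11.04, 10.46 and 10.83 in blood cultures and 7.84, 7.66 and 8.19 in marrow cultures. PCOLCE2, an enhancer of procollagen processing, read 10.26, 8.79 and 9.93 in blood cultures and 6.67, 6.70 and 7.72 in marrow cultures. The 6 arrays of these profiles come in 2 groups with 3 rats in common, so likeness mostly measures an equal difference between groups, and it carries no p.

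**Figure D4:**
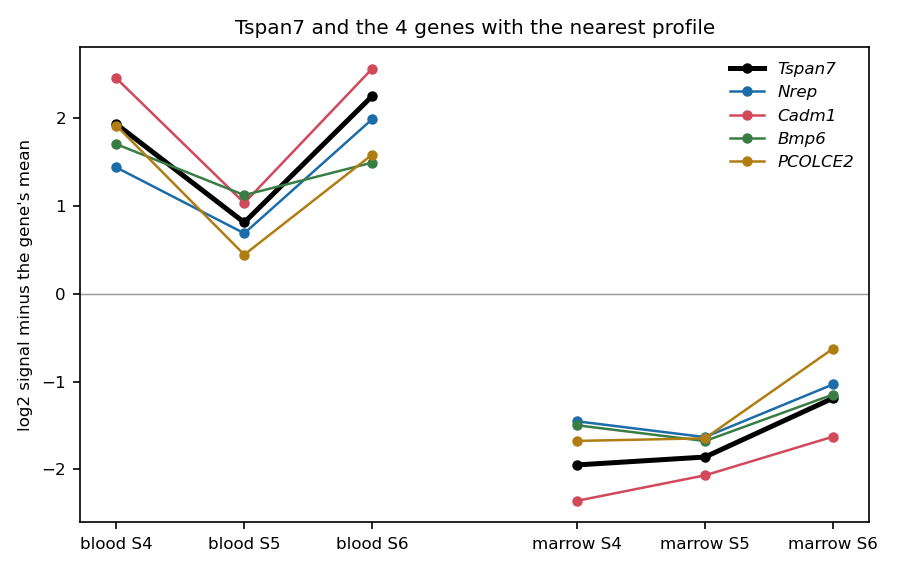
Log2 signal minus each gene's own mean (y axis) on the 3 blood and 3 marrow arrays for Tspan7 (black) and the 4 genes of nearest profile. All 5 lines lie above 0 on the blood arrays and below 0 on the marrow arrays, and on the blood side each is lowest in rat S5. The 4 genes were picked for likeness, and 57.2% of all tested probe sets were lowest in that blood array.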

How the data were processed

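RNA of 6 rat stromal cultures was measured on Affymetrix RAE230A arrays, 1 per culture, from 10 µg of total RNA. The authors deposited log2 signals, 1 per probe set and array, and GCOS is the only tool named, per the submitters' processing notes. The log2 base was read from the values, and the sources used here do not state how background was treated or arrays were normalized. Per the file headers, both arrays of a rat were run on the same fluidics station, so station is contained in the rat term. Within each rat the blood array ran on module 1 or 3 and the marrow array on module 2 or 4, so odd or even module and tissue cannot be told apart. The deposited log2 values were analysed without rescaling or a pseudocount. Control probe sets (57) were removed, and empty cells (86) left empty; none touched a tetraspanin described. The 3′ minus 5′ signal of actin was 0.24 to 0.38 in blood and 0.24 to 0.32 in marrow cultures.

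Of 15923 probe sets, 12789 had 1 gene symbol, 312 several and 2822 none; a gene in a list was represented by its brightest probe set that passed the filter. Blood minus marrow was fitted with limma 3.58.1 in R 4.3.3 (lmFit, eBayes, two-sided, Benjamini-Hochberg at 0.05), with the rat as a fixed term since the design text pairs cultures by animal. Same-rat deviations from group means correlated at -0.29, 0.30 and 0.33, and those of different rats at -0.47 to 0.42, so the pairing rests on the design text alone. On simulated data of 8113 probe sets the blood against marrow fit recovered 69.9% of probe sets changed by 1 log2 unit and 97.9% of those changed by 2. The simulated noise was drawn from the fit's own variance prior, independently for each probe set and without shifts of whole arrays. These shares therefore check the fit and do not measure recovery on the real arrays. Figures were drawn with matplotlib 3.10.9 under Python 3.11.15.

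The 7 genes and all gene lists were chosen with earlier results of these data known. The rule for named genes took every probe set of the 7 genes, all tested other tetraspanins, up to 6 partner and up to 6 vesicle genes by unadjusted p, further genes such as Itgb1 and Lamp1, up to 4 markers a list by signal, and the 4 genes nearest in profile. Not every marker that the rule allows is named. Alternatives were other scalings, filters, rats left out, no rat term, and another variance prior or probe set choice.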

Additional observations from a re-analysis of the deposited data

How the results depend on the processing

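The 7 tetraspanin differences kept their signs under trimmed-mean scaling, quantile normalization and the fit without the rat, and under each omission of a rat except for Cd9 (-0.07 without rat S5). With a rat left out, Tspan7 differed by 3.06 to 3.66, Tspan8 by 0.81 to 1.52, Cd9 by -0.07 to 0.38, Cd63 by -0.16 to -0.05, Cd81 by 0.09 to 0.32, Cd82 by -0.49 to -0.28 and Cd151 by 0.20 to 0.65. Calls over all probe sets numbered 175, and 104 under trimmed-mean scaling, 107 under quantile normalization, 82 without a filter, 130 without the replicate block, and 0 to 406 with a rat left out. Other tetraspanins and vesicle genes gave 0 calls under every alternative, and partner genes 0 to 1 with a rat left out (Itga3) and 0 elsewhere. Marker calls were 3, and 2 under either scaling (without Eng), 1 without a filter, 1 without the replicate block and 0 to 7 with a rat left out. They were 4 under the stricter filter, Eng, Msln, Nt5e and Pdgfra. The rat term gave 1 call under the stricter filter. Without the replicate block the Tspan7 difference of 3.33 had an SE of 0.40. The causes of these shifts were not tested. Signals below the table's median have no known background, which limits Tspan8 and the marrow level of Tspan7.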

Other observations

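Several genes of the tetraspanin system lay below the filter on signal and are given here by their values, chosen after these were seen. Zdhhc2, a palmitoyltransferase that modifies Cd9 and Cd151, read 7.56, 5.23 and 7.91 in blood cultures and 5.07, 4.90 and 4.49 in marrow cultures of rats S4, S5 and S6. The difference was 2.08 ± 0.60 (SE), and limma without a filter gave an adjusted p of 0.317. Tspan15, another tetraspanin that escorts ADAM10, read 7.39, 6.09 and 7.07 in blood cultures and 5.12, 6.26 and 5.40 in marrow cultures, a difference of 1.26 ± 0.48 (limma adjusted p = 0.445 without a filter), with rat S5 in the other direction.

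The integrin α7 chain gene Itga7, a laminin receptor of muscle, was read by 3 dim probe sets that disagreed. They differed by -1.01 ± 0.17, -0.76 ± 0.17 and 0.18 ± 0.39 (limma adjusted p = 0.129, 0.215 and 0.942 without a filter). Igsf3, an immunoglobulin-family relative of Igsf8, read 7.69, 7.96 and 7.70 in blood cultures and 8.60, 8.68 and 7.98 in marrow cultures, a difference of -0.64 ± 0.17 (limma adjusted p = 0.284 without a filter).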
